A study of Mus musculus with 12 samples.

Results

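The genes described here carry symbols that start with Tex (testis expressed), Spata (spermatogenesis associated) or Tssk (testis-specific serine kinase) followed by a digit. All protein-coding genes of GENCODE release M21 with such a symbol were taken, except Tex15, Tex101 and Tex19.1, which gave 70 of 21938 genes, with 35 Tex, 29 Spata and 6 Tssk genes among them. The symbol alone chose them, so the set holds germ cell genes beside genes that act in many tissues. Their promoters, the gene's 5′ end plus and minus 1000 bp on GRCm38 (mm10), were searched for peaks of accessible chromatin in 12 ATAC-seq libraries of mouse tumour lines. In ATAC-seq a transposase inserts adapters into open DNA, and a peak is an interval where the authors' caller found more insertions than in the surrounding background.

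There were 4 groups of 3 libraries. 4T1 mammary carcinoma cells were treated with 1 µM decitabine (DAC) for 48 h or left untreated, and B16F10 melanoma cells were treated with 0.1 µM DAC for 48 h or left untreated. Dead cells were removed before the assay, per the labels. The dose differed between the lines, so line and dose cannot be told apart in any difference between the responses of 4T1 and B16F10. Nothing in the labels says that replicates came from separate cultures, and the spread between them may be technical.

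Spermatogenesis takes germ cells through mitotic growth, meiosis and the remodelling of haploid spermatids into sperm. Many of the genes it needs are transcribed in testis and little elsewhere, and some of them are kept silent in somatic cells by methylation of CpG sites in their promoters. DAC is a cytidine analogue that is built into DNA during replication, traps DNA methyltransferases and so lowers DNA methylation in dividing cells.

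The libraries held between 49622 and 118603 peaks on the 21 assembled chromosomes, and their read depth is unknown. Peaks lay at 13377 to 13651 gene promoters in treated 4T1 libraries, against 12325 to 12423 in untreated ones, and at 10961 to 11145 in treated B16F10 libraries, against 10840 to 10916 in untreated ones. Over both lines the treated libraries had 645.5 more promoters with a peak on average (exact two-sided permutation test with labels permuted within each line, p = 0.005, the smallest possible, adjusted p = 0.015 over 3 tests; within a line 3 against 3 libraries cannot go below 0.10, which each line gave). The difference was 1139.3 in 4T1 and 151.7 in B16F10. Over both lines it was 202.2 with the same number of peaks in every library of a line and 428.8 with a −log10 q of at least 5. With peaks under 5-fold left out it was −11 (exact permutation p = 0.685), so no gain was seen there. The median fold enrichment of all peaks, a ratio to the background of the same library, was 5.83 ± 0.228 in treated and 8.21 ± 0.157 in untreated 4T1 libraries (SD, n = 3), so a peak of the same fold ranks differently in the 2 arms. It was 7.56 ± 0.0953 in treated and 8.44 ± 0.216 in untreated B16F10 libraries. Marker promoters followed the labelled lines. All 11 epithelial markers had a peak in every 4T1 library and only Elf3 had any in B16F10, while 7 of 9 melanocyte markers had a peak in every B16F10 library, with Tyr and Oca2 at 0, and only Mitf and Pmel did in 4T1. Of 8 leukocyte markers at most 1 had a peak in any library, of 6 fibroblast markers at most 2, and of 8 markers of testis somatic cells 5 in each treated 4T1 library, 4 or 5 in untreated ones and 2 in every B16F10 library.

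The sequences below show the promoters with the strongest peaks among the genes of the set that had a peak in every treated and no untreated 4T1 library, with 2 promoters that had no peak in any library, a CpG-rich and a CpG-poor one, for contrast. Each runs from 250 bases before to 50 bases from the annotated 5′ end, read from the RefSeq copy of GRCm38 in the direction of the gene, with CpG sites in capitals. Tex11, whose protein acts in meiotic crossing over, lies at chrX:101059618-101059917 on the minus strand and has 25 CpG sites in this window. Spata48 lies at chr11:11461844-11462143 on the plus strand and has 24. Tex12, which encodes a protein of the central element of the synaptonemal complex, lies at chr9:50561276-50561575 on the minus strand and has 22. Spata18, a p53-induced gene of mitochondrial quality control, had no peak in any library and lies at chr5:73651129-73651428 on the plus strand, with 30. Spata31d1c, a member of the testis-expressed Spata31 family, lies at chr13:65032808-65033107 on the plus strand and has 0. The median over all 21938 genes was 11.
Tex11: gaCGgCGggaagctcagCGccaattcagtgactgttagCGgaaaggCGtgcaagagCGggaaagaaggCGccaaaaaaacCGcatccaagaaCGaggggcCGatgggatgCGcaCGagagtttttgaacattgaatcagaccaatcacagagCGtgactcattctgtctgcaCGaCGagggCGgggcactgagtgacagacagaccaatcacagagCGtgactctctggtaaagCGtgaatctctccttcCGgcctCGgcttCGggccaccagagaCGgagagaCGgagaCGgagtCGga
Spata48: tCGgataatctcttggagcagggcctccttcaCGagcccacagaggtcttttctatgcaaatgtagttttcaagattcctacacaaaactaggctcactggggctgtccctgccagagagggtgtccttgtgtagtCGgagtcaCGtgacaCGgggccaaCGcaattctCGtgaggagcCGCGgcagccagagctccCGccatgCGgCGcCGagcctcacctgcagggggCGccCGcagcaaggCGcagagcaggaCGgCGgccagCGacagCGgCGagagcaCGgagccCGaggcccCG
Tex12: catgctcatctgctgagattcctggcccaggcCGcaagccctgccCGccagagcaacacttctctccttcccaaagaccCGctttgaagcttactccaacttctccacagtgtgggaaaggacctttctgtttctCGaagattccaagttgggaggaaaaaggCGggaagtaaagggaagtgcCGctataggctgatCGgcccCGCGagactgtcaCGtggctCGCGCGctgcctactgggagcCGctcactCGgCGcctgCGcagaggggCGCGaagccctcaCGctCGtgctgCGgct
Spata18: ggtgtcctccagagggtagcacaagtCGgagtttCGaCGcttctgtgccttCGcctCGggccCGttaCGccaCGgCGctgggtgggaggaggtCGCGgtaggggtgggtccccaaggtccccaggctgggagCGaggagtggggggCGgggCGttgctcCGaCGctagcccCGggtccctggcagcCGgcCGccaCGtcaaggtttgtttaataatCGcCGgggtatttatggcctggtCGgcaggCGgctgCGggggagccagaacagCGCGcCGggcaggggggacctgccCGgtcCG
Spata31d1c: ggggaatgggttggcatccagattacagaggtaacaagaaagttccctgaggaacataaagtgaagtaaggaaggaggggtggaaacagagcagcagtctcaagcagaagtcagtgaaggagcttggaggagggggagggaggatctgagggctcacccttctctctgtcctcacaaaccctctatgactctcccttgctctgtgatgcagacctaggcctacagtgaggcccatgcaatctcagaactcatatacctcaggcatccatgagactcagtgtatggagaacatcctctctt

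In 4T1 cells several germ cell genes of the set had promoter peaks in all treated libraries and in no untreated one. The treated 4T1 libraries listed a promoter peak for 32, 33 and 34 of the 70 genes, against 25, 29 and 26 in the untreated ones, so the counts of the arms did not overlap. As a share, 47.1 ± 1.43% of the set had a peak in treated and 38.1 ± 2.97% in untreated 4T1 libraries (SD, n = 3), while 61.6 ± 0.625% and 56.4 ± 0.224% of all genes did. In B16F10 the counts were 20, 19 and 20 in treated and 20, 19 and 20 in untreated libraries. Of the Tex genes 15, 16 and 17 had a peak in the treated 4T1 libraries, against 11, 15 and 12 in the untreated ones, of the Spata genes 15, 15 and 16 against 13 in each, and of the Tssk genes 2, 2 and 1 against 1 in each.

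**Figure D1:**
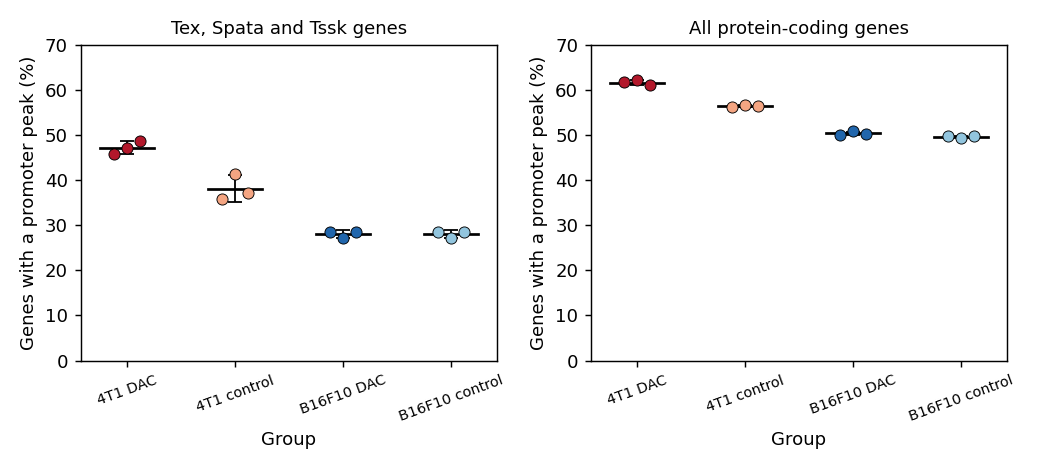
Share of the 70 Tex, Spata and Tssk genes (left) and of all 21938 protein-coding genes (right) with a promoter peak, in percent; each point is a library, the bar is the mean of 3 libraries and the whiskers are 1 SD. The treated 4T1 libraries lie at 45.7 to 48.6% of the set and the untreated ones at 35.7 to 41.4%, while both B16F10 arms lie at 27.1 to 28.6%.

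The set fell into 6 patterns of peaks. A promoter peak was present in all 12 libraries for 18 genes and in none for 31, against 45.8% and 32.3% of all genes. In 4T1, 5 genes had a peak in 3 of 3 treated and 0 of 3 untreated libraries, namely Tex11, Tex12, Tex13b, Spata4 and Spata48. The share of all genes called this way was 4.22%, or 926 genes, and the reverse held for none of the set and for 0.419% of all genes (92 genes). In B16F10 no gene of the set was called in either arm alone, where 0.228% and 0.0684% of all genes (50 and 15 genes) were called in treated and in untreated libraries alone, and none of the 49 genes without an untreated B16F10 peak was called in all 3 treated libraries, against 0.464% of all such genes. A further 6 genes had a peak in every 4T1 library of both arms and none in B16F10, a pattern of 6.44% of all genes. The reverse held for 1 gene, a pattern of 0.985%. The other 9 had a mixed pattern, as did 2243 of all 21938 genes.

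The 926 to 92 split of all genes in 4T1 moved with the threshold. With peaks under 5-fold left out it was 249 to 248, and with the same number of peaks in every library it was 487 to 176. Of the set, Tex11, Tex12 and Spata48 were called in treated 4T1 libraries alone in each of these settings, Spata4 with equal numbers of peaks and not at a fold of at least 5, and Tex13b in neither.

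**Figure D2:**
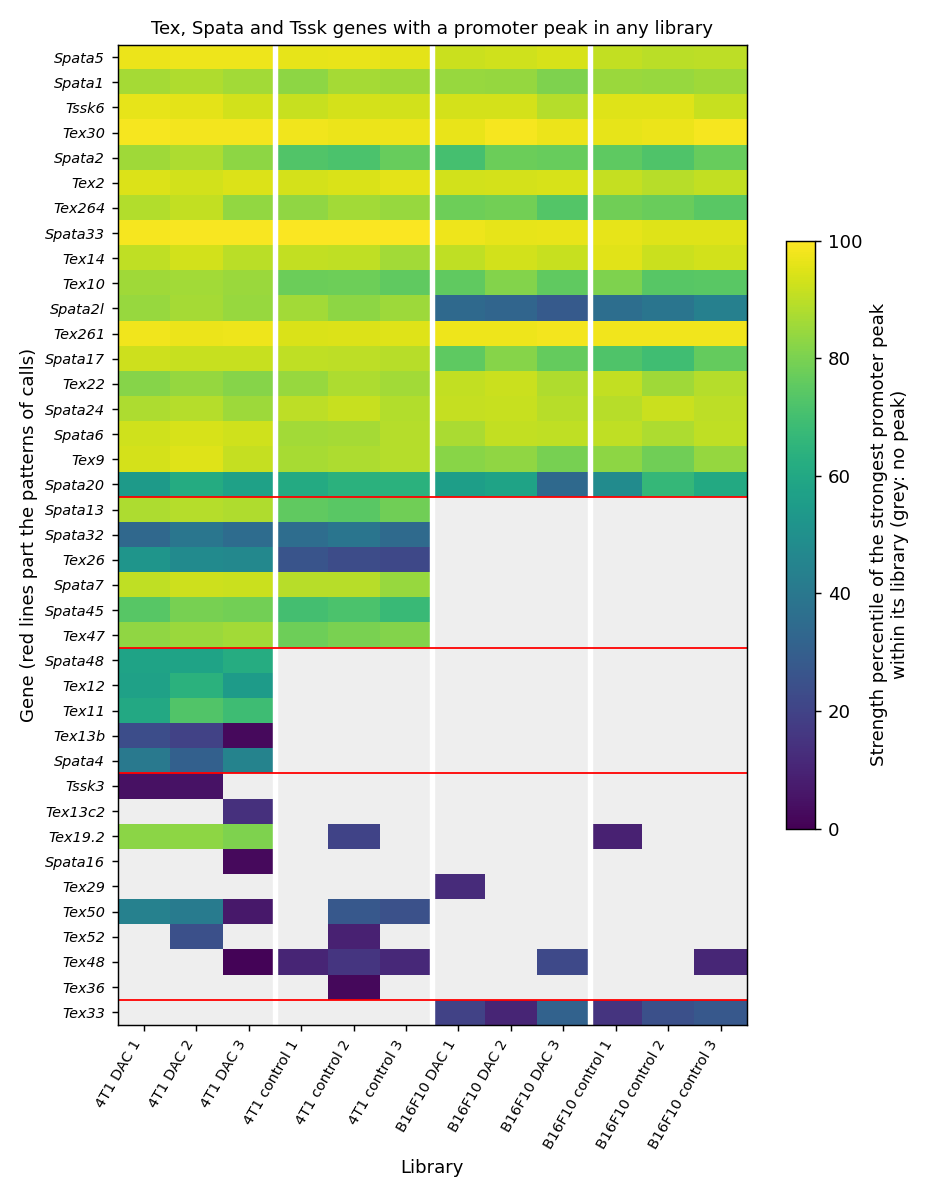
Strength percentile of the strongest promoter peak, by gene (rows) and library (columns), for the 39 genes of the set with a peak in any library; the percentile is the rank of the peak's −log10 q among all peaks of its own library, 100 is the strongest, and grey means no peak. Tex11, Tex12, Spata48, Spata4 and Tex13b have values in the 3 treated 4T1 libraries and in no other.

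The meiotic genes Tex11 and Tex12 gained peaks over their 5′ ends. Tex11 (ENSMUSG00000009670) had peaks of 9.15, 12.5 and 11.8-fold enrichment in the 3 treated 4T1 libraries, at strength percentiles of 60.5, 72.8 and 68.9 of their lists, and no peak in any untreated 4T1 or any B16F10 library. The peaks spanned chromosome X, 101059558 to 101059995 (mm10), with summits 19, 58 and 58 bp upstream of the 5′ end at 101059667, and the nearest B16F10 peak was 66791 bp away. Tex12 (ENSMUSG00000032065) had 8.42, 9.59 and 8.12-fold enrichment in treated 4T1 libraries, at percentiles of 57.3, 63.9 and 54.9, and no peak elsewhere. Its peaks spanned chromosome 9, 50560887 to 50561625, over the 5′ end at 50561325, which lies inside the annotated body of Il18, a cytokine gene. By the lowest percentile of the 3 libraries, Tex11 ranked 65 and Tex12 ranked 83 among the 926 genes called in treated 4T1 libraries alone, whose median was 19.6.

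Spata48 shares its promoter with Zpbp, which encodes a zona pellucida binding protein of the acrosome. The 5′ end of each lies inside the other gene, 314 bp apart, and both were called in treated 4T1 libraries alone. Spata48 (ENSMUSG00000020191) had peaks of 8.57, 8.13 and 9.72-fold enrichment in the treated 4T1 libraries, at percentiles of 58.0, 57.9 and 61.9, and none in the other 9. They spanned chromosome 11, 11461644 to 11462598, and were 799 to 950 bp wide, against 344 to 414 bp at Tex11 and 577 to 735 bp at Tex12. A peak that covers both 5′ ends does not say which of the genes it belongs to.

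Spata4 and Tex13b had weaker peaks. Spata4 (ENSMUSG00000031518) had 5.66, 4.40 and 6.37-fold enrichment in treated 4T1 libraries, at percentiles of 40.5, 30.8 and 44.7, on chromosome 8, 54600684 to 54601205, with summits 198 to 276 bp inside the gene. An antisense gene, 5330439A09Rik, starts 206 bp inside Spata4. Tex13b (ENSMUSG00000042386), an X-linked gene, had 4.07, 3.598 and 2.71-fold enrichment at percentiles of 23.5, 19.6 and 2.41, and its peaks lay 362 to 425 bp upstream by their summits and did not reach the 5′ end. The last of these was among the weakest peaks of its library, and Tex13b ranked 872 of 926.

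**Figure D3:**
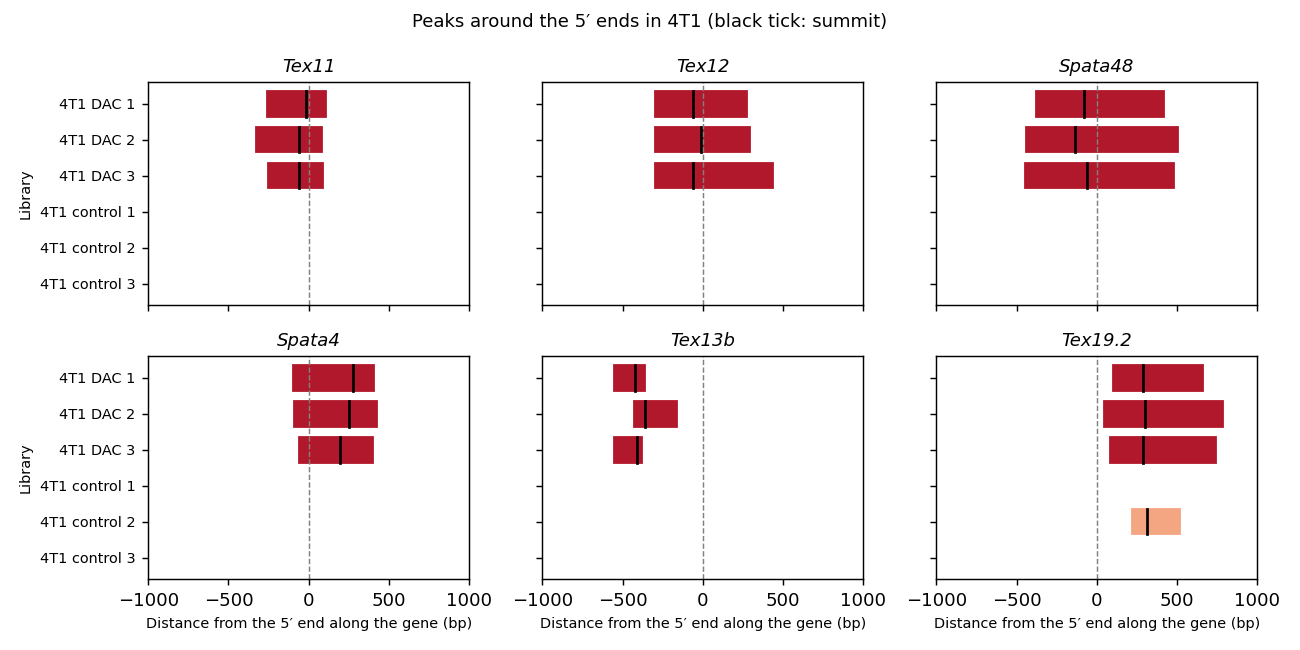
Peaks within 1000 bp of the 5′ end in the 6 4T1 libraries, with treated libraries above untreated ones, for the 5 genes called in treated libraries alone and for Tex19.2; boxes span the peaks along the gene, the black tick is the summit and the dashed line is the 5′ end. Summits of Tex11, Tex12 and Spata48 lie within 138 bp upstream of the 5′ end, those of Spata4 and Tex19.2 inside the gene and those of Tex13b 362 to 425 bp upstream.

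Tex19.2, a germ cell gene, had strong peaks in treated 4T1 cells but was not called, because of a weak peak in a single untreated library. The treated libraries had 16.01, 15.4 and 14.5-fold enrichment at percentiles of 82.7, 83.1 and 80.6, against 5.16-fold at percentile 20.2 in untreated replicate 2 and no peak in untreated replicates 1 and 3. The summits lay 286 to 311 bp inside the gene in all 4 of these libraries. Without untreated replicate 2 it joins the genes called in treated 4T1 libraries alone. In B16F10 it had a peak of 4.28-fold in untreated replicate 1 and none in the treated libraries.

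Weaker or rarer gains were listed for other genes. Tssk3, which encodes a spermatid kinase and shares its promoter with the divergent gene Fam229a, had 2.70 and 2.65-fold enrichment in treated 4T1 replicates 1 and 2 at percentiles of 4.67 and 5.06. Tex13c2 and Spata16, an acrosome gene, each had a peak in treated 4T1 replicate 3 alone, of 3.50 and 2.71-fold. Such calls in 1 or 2 treated 4T1 libraries with no untreated peak were made at 3 genes of the set and at 3.5% of all genes. In B16F10, Tex29 was the single gene of the set with such calls, which were made at 1.77% of all genes. It had a peak of 4.41-fold in treated replicate 1, whose near edge was 977 bp from the 5′ end. In treated replicates 2 and 3 the nearest peaks were 1193 and 1196 bp away, just outside the promoter as defined, so Tex29 was called in treated B16F10 libraries alone with a promoter of plus and minus 2000 bp or with every annotated transcript start.

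Tex50, Tex52, Tex48 and Tex36 had scattered weak calls. Tex19.2, Tex36, Tex50 and Tex52 were the 4 genes of the set with a peak in 1 or 2 untreated 4T1 libraries, a pattern of 2.02% of all genes. Tex50 had peaks in 3 treated 4T1 libraries, of 6.10, 5.46 and 3.03-fold, and in untreated replicates 2 and 3, of 6.08 and 5.79-fold, so its arms overlapped. Tex52 had a peak in treated and in untreated 4T1 replicate 2 (3.58 and 3.87-fold) and in no other library. Tex48 was listed in treated 4T1 replicate 3 at 2.55-fold, against 4.29, 4.61 and 4.19-fold in the 3 untreated 4T1 libraries, and in replicate 3 of each B16F10 arm. Tex36 had a peak of 2.95-fold in untreated 4T1 replicate 2. With peaks of −log10 q of at least 5 alone, or with equal numbers of peaks, Tex48 was called in untreated 4T1 libraries alone.

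Of the 5 genes called in treated 4T1 libraries alone, 4 had 3 to under 5 CpG per 100 bp. Of the 41 genes of the set with no peak in an untreated 4T1 library, 5 were called in all 3 treated libraries, where 9.93% of all such genes were. Among those with 3 to under 5 CpG per 100 bp it was 4 of 6, against 27.5% of all genes of that class, and among those under 3 it was 1 of 35, against 3.16%. In finer steps it was 0 of 15 under 1 CpG per 100 bp (1.09% of all genes), 1 of 17, Spata4, at 1 to under 2 (4.14%) and 0 of 3 at 2 to under 3 (11.4%). The 2 others of the denser class were Tssk3, with 4.80 CpG per 100 bp and the 2 weak peaks given above, and Spata18, with 4.10 and no peak in any library. Within the narrower 300 bases at the 5′ end Spata18 had 30 CpG sites. The meiotic gene Spata22, also without a peak, had 25 there, as many as Tex11. Over the 2001 bp Spata22 had 2.499 CpG per 100 bp, in a lower class than Tex11 with 3.30. Whether CpG number alone tells called from uncalled genes was not tested. No gene of the set without an untreated 4T1 peak had 5 or more CpG per 100 bp, a class in which 64.1% of all genes were called. The densities of the 5 called genes were 4.10 for Spata48, 3.35 for Tex12, 3.30 for Tex11, 3.25 for Tex13b and 1.55 for Spata4. Their median of 3.30 lay under the median of 4.75 over all 926 genes called this way and close to the median of 3.05 over all 21938 genes.

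**Figure D4:**
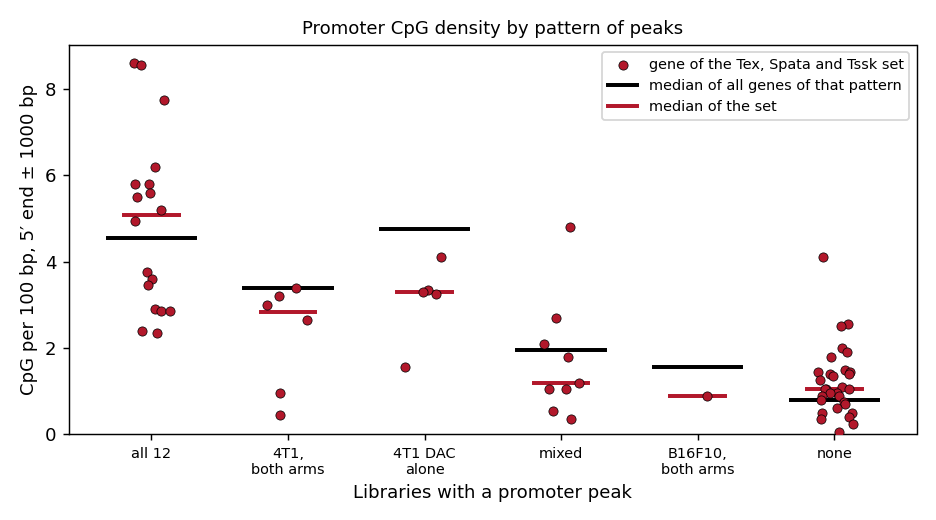
CpG sites per 100 bp in the 2001 bp around the 5′ end, by pattern of promoter peaks; points are the 70 genes of the set, red bars their medians and black bars the medians of all genes with that pattern. The median of the set is 5.07 for genes with a peak in all 12 libraries, 3.30 for those called in treated 4T1 libraries alone and 1.05 for those with no peak.

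Short sequence motifs were sought on both strands of the 300 bases used above. The E-box CACGTG was present in Spata48 and Tex12 and in 7.75% of all promoters. The E2F motif GCGGGAA was present in Tex11 and Tex12 and in 5.72% of all promoters. The NFY motif CCAAT was present in Tex11 and in 39.0% of all promoters. Among the 926 genes called in treated 4T1 libraries alone, the shares were 10.3% for the E-box, 7.13% for E2F and 36.9% for NFY. The CRE motif TGACGTCA was not found in any of the 5 genes called in treated 4T1 libraries alone and was in 2.43% of all promoters. Neither was an NRF1 motif, found in 1.22% of all promoters, nor an RFX X-box, found in 1.34%. Over the whole set the E-box was found in 6 of 70 genes, E2F in 8, NFY in 21, CRE in 1 (Spata7), NRF1 in 1 (Spata1) and the RFX X-box in 2 (Tex264 and Tex33).

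The 18 genes with a peak in every library include several that are known from many tissues. The 5 of highest strength were Tex30, Spata33, Tex261, Spata5 and Tex2, with lowest percentiles over the 12 libraries of 96.5, 95.1, 94.2, 89.6 and 89.3. Spata5 encodes an ATPase of ribosome biogenesis, and Tex2 a lipid transfer protein of the endoplasmic reticulum. The median over the 18 was 83.6, against 82.9 over the 10047 genes with a peak in all libraries. Tex30 had 18.7 ± 0.726-fold enrichment in treated and 18.8 ± 0.396 in untreated 4T1 libraries (SD, n = 3). In B16F10 it had 17.4 ± 0.795 in treated and 18.4 ± 0.817 in untreated libraries (SD, n = 3). The fold values of the arms overlapped in each line. Its percentiles in 4T1 did not, at 98.1 to 98.5 in treated and 97.0 to 97.9 in untreated libraries. The others were Tssk6, Tex14, Spata6, Spata24, Tex22, Spata1, Tex9, Tex10, the endoplasmic reticulum phagy receptor gene Tex264, Spata2, which encodes an adaptor of TNF receptor signalling, Spata17, Spata20 and Spata2l.

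Of these 18 genes, 7 share the promoter with a protein-coding neighbour on the opposite strand. Spata1 with Gng5, Spata33 with Chmp1a, Tex14 with Rad51c and Spata17 with Gpatch2 lie apart and point away from each other. Spata5 with Nudt6, Spata2 with Rnf114, and Tssk6 with Ndufa13 and Yjefn3 overlap instead, since the start of each lies inside its neighbour. Of all genes with a peak in every library 21.3% had an opposite-strand neighbour of either kind. Tssk6, which encodes a kinase needed for chromatin condensation in spermatids, had a peak on either side of its 5′ end in every library, and its strongest peak had the summit 1008 to 1099 bp inside the gene, except in treated 4T1 replicates 1 and 2, where it was 547 bp upstream. The upstream peak reached the 5′ end in 0 treated and 2 untreated 4T1 libraries and in 1 treated and 3 untreated B16F10 libraries. At Tex14, a gene of the bridges between germ cells, the strongest peaks had summits 475 to 590 bp upstream in all 4 groups. Whether such peaks belong to the gene of the set or to its neighbour cannot be told from the peak lists. The strongest peaks at Spata2l, at percentiles of 84.4, 86.4 and 84.5 in treated and 86.1, 83.0 and 85.3 in untreated 4T1 libraries, covered the 5′ end, while those of B16F10, at 34.4, 32.5 and 28.4 in treated and 36.1, 38.7 and 43.4 in untreated libraries, had summits 1039 to 1228 bp upstream.

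The lines differed without treatment at 7 genes of the set, at shares near those of all genes. Spata7, Spata13, Spata32, Spata45, Tex26 and Tex47 had a promoter peak in 3 of 3 untreated 4T1 and 0 of 3 untreated B16F10 libraries. This was a pattern of 8.57% of the set and 8.03% of all genes, and it held among the treated libraries for all 6. Tex33 was the single gene with the reverse, a pattern of 1.43% of the set and 1.94% of all genes. The 4T1 lists were longer. With the same number of peaks in all 12 libraries, 4 of the 6 were still called, without Spata32 and Tex26, beside 5.54% of all genes, and Tex33 was called beside 3.13%.

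Spata7, a gene of the photoreceptor cilium, had 18.7, 17.9 and 19.12-fold enrichment in treated and 19.6, 19.5 and 17.2-fold in untreated 4T1 libraries, with summits 9 to 15 bp inside the gene. Spata13 had 10.6, 11.03 and 11.3-fold against 11.1, 10.5 and 12.5-fold. The arms overlapped in fold at both genes, but not in strength percentile within their lists, which differ in length. Percentiles at Spata7 were 90.3 to 92.2 in treated and 84.6 to 89.3 in untreated 4T1 libraries. At Spata13 they were 87.6 to 89.0 and 74.2 to 78.2. At Tex47 and Spata45 the peaks lay apart from the 5′ end, with near edges 797 to 867 bp and 658 to 664 bp away, and with a window of plus and minus 500 bp neither was called. Tex33 had 3.83, 3.21 and 4.49-fold in treated and 3.38, 4.13 and 4.02-fold in untreated B16F10 libraries, with edges 641 to 889 bp from the 5′ end, and was not called at a fold of at least 5 or within 500 bp.

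At Tex26 the strongest peak stood at different places in the arms of 4T1. A peak with its summit within 27 bp of the 5′ end had 7.41, 6.26 and 6.69-fold enrichment in the treated libraries at percentiles of 52.2, 47.8 and 46.8, against 3.90 and 3.32-fold at percentiles of 7.37 and 4.48 in untreated replicates 1 and 2 and none in untreated replicate 3. A peak with its summit 588 to 637 bp inside the gene had 3.92 and 3.46-fold in treated replicates 1 and 2, against 6.24, 5.53 and 5.39-fold in the untreated libraries. Percentiles of lists of different length show no change in amount, so these values describe the order of peaks within each library.

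The reach of peaks to the 5′ end differed between the arms of 4T1 at genes with peaks in both. At Tex14, the peaks covered the 5′ end in 3 treated and 0 untreated 4T1 libraries and in all B16F10 libraries, while their fold enrichment was 16.4 ± 1.02 in treated and 22.0 ± 1.69 in untreated 4T1 libraries (SD, n = 3). At Spata13 and Spata32 they covered it in 0 treated and 3 untreated 4T1 libraries. In all, 5 genes of the set had the 5′ end under a peak in treated 4T1 libraries alone (Tex11, Tex12, Tex14, Spata4 and Spata48) and 2 in untreated ones alone, against 2.1% and 0.451% of all genes; this count was added after the data were seen.

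The 31 genes without a promoter peak in any library include most of the kinases of the set, with Tssk1, Tssk2, Tssk4 and Tssk5, the whole Spata31 family (Spata31 and Spata31d1a to Spata31d1d), the meiotic recombination gene Spata22, and Tex13a, Tex13c1 and Tex13c3. Their median density was 1.05 CpG per 100 bp, against 0.800 over all 7094 genes without a peak. The densest were Spata18 (4.10), Tssk2 (2.55), Spata22 (2.499), Tssk1 (2.00) and Tssk5 (1.90), and the least dense Spata31d1c (1 CpG site in all 2001 bp), Tex16 (0.250), Spata31 (0.350), Spata9 (0.400), and Tex28 and Spata31d1b (0.500 each). The nearest peak in any library was 1384 bp from the 5′ end at the closest gene, Spata3, and 116091 bp away at the farthest, Tex16, with a median of 5562 bp, and 10 of the 31 had none within 10 kb. Tssk1 and Tssk2 share 6.40% of the 50-base words of their promoter windows, the largest share of any pair in the set, so reads there may map to either gene.

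Other transcript starts added few peaks. With every annotated start considered, Spata3 had a peak in 3 of 3 treated and 0 of 3 untreated 4T1 libraries, Tex45 had peaks in all 6 4T1 libraries and none in B16F10, and Tex21 had a peak in 1 treated 4T1 library. The other 28 of the 31 remained without a peak.

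Of a list of 50 other spermatogenesis genes 49 were matched, and peaks lay at 23, 25 and 20 of them in treated 4T1 libraries, against 14, 16 and 15 in untreated ones, and at 13, 12 and 12 in treated B16F10 libraries, against 11 in each untreated one. Over all genes the mean share with a peak also rose, from 56.4% in untreated to 61.6% in treated 4T1 libraries and from 49.6% to 50.3% in B16F10. Of the 49 genes, 7 were called in treated 4T1 libraries alone, against 4.22% of all genes, and 0 in untreated 4T1 libraries alone or in either arm of B16F10 alone. They were Taf7l, Sox30 and Tcfl5, which encode transcription regulators of male germ cells, the sperm calcium channel gene Catsper3, Tsga8, Zpbp and Gsg1, with lowest percentiles of 69.4, 61.7, 23.5, 67.3, 66.4, 57.9 and 5.34. Zpbp is counted through the peak it shares with Spata48. Among the genes of sperm chromatin packing on the list, Prm2, Tnp1, Tnp2 and H1fnt had no peak in any library, and Prm1 had a peak in 2 treated B16F10 libraries and in no other. Hils1, which encodes a linker histone of spermatids, had a peak in 3 treated and 3 untreated B16F10 libraries, and in 0 treated and 1 untreated 4T1 libraries.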

How the data were processed

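ATAC-seq peak lists of 12 libraries were read as deposited, 1 list per library. The submitters' processing notes give the build mm10 and name MACS2 and Bowtie2 among their tools, with no version or role; caller settings are not given in the sources used here. Per the file layout, the authors deposited for each peak a fold enrichment over local background (a ratio), a −log10 p and −log10 q (lowest 1.30), a score of 10 times −log10 q, and a summit. No counts were given, so read depth is unknown and no interval or count test was possible. A gene was called where a peak overlapped its 5′ end ± 1000 bp by at least 1 bp, and called in a group alone at 3 of 3 against 0 of 3 libraries. Promoters with a peak were compared by exact permutation over libraries. The p-values measure only the spread between these libraries. The overlap step of the calling was checked on simulated peaks placed over 5′ ends, with no noise, weak or distant peaks.

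Members and gene lists were chosen with earlier results of these data known. The rule for named genes took those called in an arm or a line alone or in 1 or 2 treated libraries, the 5 strongest in all 12, and the 5 densest and least dense in CpG without a peak, with their neighbours; every other gene of the set named in the text, and the Spata18 sequence, was chosen after its values were seen. Alternatives were other thresholds, windows, transcript starts, equal list lengths and each library left out. Replicate numbers did not pair the libraries (r −0.0692 to 0.0406 between same-numbered libraries). Python 3.11.15, numpy 2.4.6, pandas 2.3.3 and matplotlib 3.10.9 were used.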

Additional observations from a re-analysis of the deposited data

Results flagged for a closer look

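Some listed peaks entered no comparison above, being on sequences outside the 21 assembled chromosomes or repeats of a listed interval, which were not counted apart. They numbered 1145, 1192 and 1105 in treated 4T1 libraries (mean 1147), against 828, 872 and 841 in untreated ones (mean 847). In B16F10, treated replicate 2 listed 0 such peaks and the other 5 libraries listed 504 to 530. The genes of the set all lie on the assembled chromosomes, and other sequences were not searched for promoters.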

How the results depend on the processing

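The 5 genes called in treated 4T1 libraries alone became 3 at a fold enrichment of at least 5. Their number was between 4 and 6 under the other alternatives (5 to 6 with a library left out). Leaving a library out can only keep or add calls in a group alone. Such counts, here and below, could not fall under the main count and do not test its stability. Called in untreated 4T1 libraries alone were 0, but 1 at −log10 q of at least 5 and 1 with equal list lengths (Tex48), 2 where a peak had to cover the 5′ end itself (Spata13 and Spata32, an alternative chosen after seeing the data), and 0 to 1 with a library left out, the 1 being Tex48 without treated replicate 3. Called in treated B16F10 libraries alone were 0, but 1 (Tex29) within 2000 bp or at any transcript start. Called in untreated B16F10 and not untreated 4T1 libraries was 1 gene, but 0 at a fold of at least 5 and 0 within 500 bp. Over all promoters the mean gain of 645.5 was gone at a fold of at least 5, with a difference of −11 (p = 0.685, exact permutation). It was 202.2 with equal list lengths and 428.8 at −log10 q of at least 5, and lay between 611.5 and 680 with a library left out. With a replicate block the difference was again 645.5 (exact sign flips, p = 0.0313, the smallest possible). Genes called over the whole genome in treated 4T1 libraries alone numbered 926, but 249 at a fold of at least 5, 487 with equal lists and 460 at the 5′ end itself, and in untreated ones alone 92, but 248, 176, 99 and, by 2 of 3 libraries, 140. In treated B16F10 libraries alone 50 became 152 by 2 of 3 libraries and 62 to 101 with a library left out, and in untreated ones alone 15 became 31 at a fold of at least 5, 56 by 2 of 3 libraries and 21 to 34 with a library left out (34 without treated replicate 2). In untreated B16F10 and not untreated 4T1 libraries 425 became 686 with equal lists. The causes were not tested. Of 84 single-gene alternatives 73 kept their call and 11 lost it. A reversal could not occur, since each of these settings only removed or only added peaks. Depth limits every absence of a peak: it is not shown that the promoter was closed.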

Other observations

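On the X chromosome lay 8 genes of the set, of which 2 (Tex11 and Tex13b) were called in treated 4T1 libraries alone and 0 had a peak in all 12 libraries. Of the 62 autosomal genes 3 and 18 did. Over all genes 4.11% of X-linked and 4.26% of autosomal genes were called in treated 4T1 libraries alone, and 28.9% of X-linked and 47.0% of autosomal genes had a peak in all 12 libraries.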
